A study of Mus musculus with 36 samples.

Results

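This report compares organoids given added Wnt5a with organoids given the medium of senescent fibroblasts, in the 6 libraries labelled Wnt5a+IgG and the 6 labelled Senescent CM+IgG, which are 12 of the 36 libraries of the series. The libraries were chosen by their treatment labels alone. All 36 came from jejunal organoids of C57BL/6 mice grown in IntestiCult, and each culture also received either IgG or an antibody against Ptk7. SCM + IgG is concentrated serum-free medium conditioned by senescent mouse embryonic fibroblasts and mixed with growth medium, together with control IgG. Wnt5a + IgG is complete media with Wnt5a added, together with control IgG, so the media differed in more than the ligand. Control cultures were complete media + IgG and QCM + IgG, the latter with medium of quiescent fibroblasts, and SCM + anti-Ptk7 and Wnt5a + anti-Ptk7 were further cultures of the same media, each with 6 libraries. Crypts came from 6 mice according to the design. The dose of Wnt5a, the agent that made the fibroblasts senescent and the age of the mice are not stated for these libraries.

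Wnt5a is a noncanonical Wnt ligand that acts through Frizzled, Ror and Ptk7 receptors rather than mainly through beta-catenin, and in the gut it is made by mesenchymal cells around crypts and wounds. Senescent cells release a mixture of growth factors, proteases, cytokines and shed receptors, known as the senescence-associated secretory phenotype. When the intestinal epithelium is damaged it can turn on a fetal-like program that includes Clu, matrix and adhesion genes and targets of the coactivator YAP, while markers of resting stem cells and differentiated cells recede.

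The cultures expressed the epithelial markers Epcam, Cdh1, Krt8, Krt18, Krt19, Vil1 and Cdx2, whose summed level was 12400 to 19400 CPM (counts scaled to the library total) in SCM + IgG and 14600 to 27400 CPM in Wnt5a + IgG. Of 12 fibroblast markers 1 was tested, their sum had a median of 1.94 CPM in SCM + IgG and 2.35 CPM in Wnt5a + IgG, and Col3a1, Dcn, Thy1 and Fbn1 were at 0 in both. Of 13 immune markers 3 were tested, with summed medians of 16.5 and 18 CPM, and of 6 endothelial and glial markers 1 was tested, with 0.523 and 0.601 CPM. Total counts ranged from 10213464 to 17072397 in SCM + IgG and from 11220233 to 21029769 in Wnt5a + IgG. Replicate 1 of each group lay farthest from the other 5 on the first 2 principal components.

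The first question was what added Wnt5a did beyond the senescent secretome, and the reverse. A gene counted as called if its adjusted p was under 0.05 and its fold change exceeded 1.5, with edgeR's quasi-likelihood test and Benjamini-Hochberg adjustment over the 15497 genes tested, and every adjusted p below is from that test. Log2 fold changes are Wnt5a + IgG minus SCM + IgG and are given with their standard error, over 6 libraries per group. Of the genes tested, 107 were called, or 0.69%. They comprised 46 genes higher with Wnt5a (0.297%) and 61 genes higher with SCM (0.394%). On adjusted p alone 436 genes passed (2.81%). In 377 genes (2.43%) the 6 libraries of one medium did not overlap with the 6 of the other, with 133 higher (0.858%) and 244 lower (1.57%) in Wnt5a + IgG, and 51 of these were called. The Euclidean distance between the mean log2 CPM profiles was 49.81, with p = 0.00433 in a two-sided exact permutation test over the 924 arrangements of the 12 library labels. Blocking on the replicate number raised the count of called genes to 259 (1.67%), with 160 higher with Wnt5a (1.03%) and 99 higher with SCM (0.639%), and 105 of the 107 genes remained called. Leaving out 1 library at a time gave 20 called genes (without Wnt5a + IgG replicate 5) to 179 (without Wnt5a + IgG replicate 2), with 22 without replicate 1 of Wnt5a + IgG. With replicate 1 of both groups left out, 3 genes were called, namely Fn1, Snrnp25 and Cnnm3. The median log2 fold change was then 0.83 for the 46 and −0.67 for the 61, which were chosen in a fit that held the other 10 of these libraries. In bulk samples such as these, more cells of a type and more RNA per cell cannot be told apart.

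**Figure D1:**
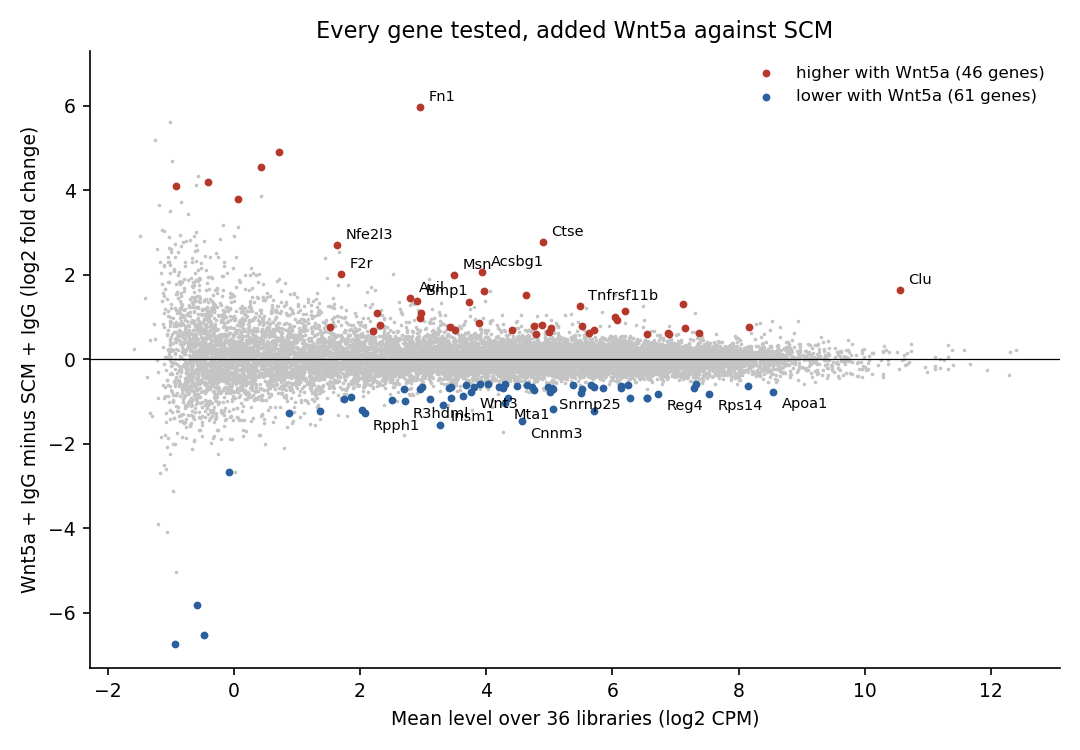
Log2 fold change of Wnt5a + IgG against SCM + IgG (vertical axis) against mean log2 CPM over all libraries (horizontal axis) for the 15497 genes tested. Colored points are the 46 genes called higher and the 61 called lower with Wnt5a, and Fn1 at 5.97 has the largest log2 fold change of the higher genes.

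Extracellular matrix and adhesion genes had estimates mostly on the Wnt5a side. Of 22 tested members of a list of laminins, integrins and matrix genes, 21 had estimates above 0, against 52.3% of all genes tested, and their median log2 fold change was 0.64, against 0.02 for all genes. The median was 0.41 without replicate 1 of both groups, and 0.47 with a correction for exon length and GC content, added after the data were seen. Fn1, Thbs1 and Lamb3 were called higher with Wnt5a and no member was called lower. In the fit with the replicate block 9 members were called, all higher with Wnt5a, among them Col4a1, Col4a2, Itgb6, Lama3 and Ntn4. The block in the 12 libraries alone called 8 members, without Ntn4, and the block with the length and GC correction called 7, without Itgb6 and Lamb3.

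Fn1 encodes fibronectin, a matrix glycoprotein that binds integrins, and lies at chr1:71585520-71653200 on the minus strand of GRCm38. Its lowest, median and highest levels were 0, 0.0490 and 1.30 CPM in SCM + IgG and 6.79, 16.3 and 36 CPM in Wnt5a + IgG. Over the 6 libraries this was 22 counts with SCM, 3 of whose libraries were at 0, and 1410 counts with Wnt5a. The groups did not overlap. The log2 fold change was 5.97 ± 0.86 (adjusted p = 0.0015), and Fn1 was the 1 gene called by a test against a fold change of 1.5 itself. It had 5 counts over the 6 libraries of complete media + IgG and 0 over those of QCM + IgG, so Fn1 was at or near 0 in every medium except those with added Wnt5a.

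Thbs1, a secreted glycoprotein of the matrix and a known target of YAP, had lowest, median and highest levels of 51.3, 85.7 and 97.3 CPM with SCM and 113, 151 and 267 CPM with Wnt5a, without overlap. It rose by a log2 fold change of 1.14 ± 0.28 (adjusted p = 0.0279). Its medians in the controls were 21 CPM in complete media + IgG and 23.1 CPM in QCM + IgG, so both media lay above their controls and Wnt5a lay highest. Lamb3, the beta chain of the basement membrane laminin 332, was at 228, 239 and 338 CPM with SCM and 314, 361 and 749 CPM with Wnt5a, and the groups overlapped at their edges (log2 fold change 0.76 ± 0.20, adjusted p = 0.0300). Lama3, the alpha chain of that laminin, had an estimate of 1.25 ± 0.46 that did not pass the test (adjusted p = 0.124), and it was called with the replicate block. Hspg2, the heparan sulfate proteoglycan perlecan, was the 1 tested member below 0, at −0.37 ± 0.44. Outside the list, Col18a1, a basement membrane collagen, was called higher with Wnt5a at 1.6 ± 0.42 (adjusted p = 0.0315), with medians of 15.8 CPM and 31.3 CPM and with 2.19 CPM in complete media + IgG. Bmp1, a protease that processes procollagens and laminins, rose by 1.39 ± 0.36 (adjusted p = 0.0323) from a median of 3.63 CPM to 10.2 CPM. The levels of Bmp1 did not overlap, and its controls had medians of 3.50 and 3.36 CPM, at the level of SCM.

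YAP targets and fetal genes also had estimates mostly above 0, and few of them passed the test. Among 18 tested YAP/TEAD targets 16 had estimates above 0 and their median log2 fold change was 0.45, and Ccn1 was called. The median was 0.29 without replicate 1 of both groups and 0.37 with the length and GC correction, and the 12 libraries alone called no member. Ccn1, a matricellular protein, was at 34.3, 62.8 and 94.0 CPM with SCM and 72.7, 115 and 226 CPM with Wnt5a, with overlap (log2 fold change 1.00 ± 0.27, adjusted p = 0.0353). It was called in 5 of 12 fits that each left out 1 library. Its medians were 19.3 CPM in complete media + IgG and 27.5 CPM in QCM + IgG. Ccn2, the related connective tissue growth factor, had 0.94 ± 0.48 (adjusted p = 0.28). The replicate block made 5 of the 18 called higher, namely Ccn1, Ccn2, F3, Myof and Nt5e. Within the core of the Hippo pathway, which restrains YAP, 19 of 21 tested genes were above 0 with a median of 0.18, and Tead2, a DNA-binding partner of YAP, was called at 0.67 ± 0.18 (adjusted p = 0.0328). With the length and GC correction 14 of the 21 were above 0 and Tead2 was not called, nor was it called by DESeq2 or in the 12 libraries alone. Tead2 was low in all media, with 3.89 to 5.13 CPM with SCM and 6.25 to 7.85 CPM with Wnt5a, and did not overlap. Yap1 itself had 0.36 ± 0.15 (adjusted p = 0.167).

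Clu encodes the secreted chaperone clusterin, a marker of revival stem cells, and lies at chr14:65968483-65981547 on the plus strand of GRCm38. It had lowest, median and highest levels of 19.8, 41.9 and 101 CPM in complete media + IgG, 96.1, 169 and 310 CPM in QCM + IgG, 604, 1090 and 1980 CPM in SCM + IgG, and 2260, 2840 and 7380 CPM in Wnt5a + IgG. The media were thus ordered without overlap between SCM and Wnt5a, and Wnt5a was the higher. The log2 fold change was 1.64 ± 0.41 (adjusted p = 0.0273). Clu was the 1 member called among 15 tested fetal and revival genes, of which 11 were above 0 with a median of 0.27. F3, Msln and Vsig1 were called as well once the replicate block was added. Ly6a, a surface marker of the fetal-like state, had −0.13 ± 0.29 (adjusted p = 0.851) and Anxa1 had 0.35 ± 0.37 (adjusted p = 0.658).

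TEAD factors, through which YAP acts, bind the core CATTCC. The 250 bases before the start of each gene in RefSeq (GRCm38.p6) were searched for CATTCC and its reverse complement GGAATG. One of these was present in 12.6% of all 32851 promoters, in 13% of those of the tested genes, in 5 of the 28 genes higher with Wnt5a that had a promoter sequence (17.9%) and in 9 of the 45 higher with SCM that had one (20%). The 6 occurrences in genes higher with Wnt5a are shown in 30-base windows, 5′ to 3′ on the strand of the gene with the core in capitals, since Ccn1, Lamb3 and Col18a1 are matrix genes of this comparison. A match is a description of the letters in the window.
Ccn1, chr3:145650071-145650100, minus strand: cgcgccaaccaaCATTCCtgagatgtttga
Lamb3, chr1:193302064-193302093, plus strand: gaggggaccccaCATTCCcagggagctctc
Col18a1, chr10:77113792-77113821, minus strand: tcaggctgggttCATTCCcttctgccagag
Col18a1, chr10:77113742-77113771, minus strand: gactgggaaccaGGAATGagggagggtggg
Nfe2l3, chr6:51432522-51432551, plus strand: taaatctgcttcCATTCCaaaatgctttga
Gcg, chr2:62483855-62483884, minus strand: aactgccctttcCATTCCcaaacagaaagg

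A further group of genes was low or absent in complete media, present with SCM and higher again with Wnt5a. Ctse, the endolysosomal protease cathepsin E, which is typical of gastric surface cells, was at 1.28, 7.53 and 18.3 CPM with SCM and 29.2, 41.6 and 133 CPM with Wnt5a, without overlap. It rose by 2.77 ± 0.59 (adjusted p = 0.0156), and its medians were 0 CPM in complete media + IgG and 0.994 CPM in QCM + IgG. Ctse was the 1 called among 5 tested genes of gastric-type mucosa, and the replicate block added Tff1, a gastric trefoil peptide, which the block in the 12 libraries alone did not call.

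Moesin (Msn), which links the membrane to actin, had levels of 4.61 to 11.6 CPM with SCM and 19.8 to 66.6 CPM with Wnt5a, and rose by 1.99 ± 0.49 (adjusted p = 0.0273). Its median in complete media + IgG was 1.02 CPM. F2r, the thrombin receptor, had 0.287 to 4.19 CPM with SCM and 6.46 to 18.9 CPM with Wnt5a (2.01 ± 0.56, adjusted p = 0.0457), and a median of 0 CPM in complete media + IgG. F2rl1, the related receptor for trypsin-like proteases, was called at 0.70 ± 0.18 (adjusted p = 0.0300) from medians of 45.4 CPM and 74.8 CPM. Acsbg1, an acyl-CoA synthetase, rose by 2.07 ± 0.57 (adjusted p = 0.0408) with medians of 7.05 CPM with SCM, 21.9 CPM with Wnt5a and 0.157 CPM in complete media + IgG. Nfe2l3, a bZIP transcription factor, rose by 2.70 ± 0.75 (adjusted p = 0.0428) from a median of 1.38 CPM to 5.03 CPM. For all 4 of Msn, F2r, Acsbg1 and Nfe2l3 the 6 libraries of Wnt5a lay above the 6 of SCM. DESeq2 called Msn but not F2r, Acsbg1 or Nfe2l3. In the 12 fits that each left out 1 library, Msn was called in 7, F2r in 3, Acsbg1 in 5 and Nfe2l3 in 5.

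Tnfrsf11b, which encodes osteoprotegerin, a soluble decoy receptor for the ligand RANKL, was at 29.7, 38.5 and 41.0 CPM with SCM and 64.9, 76.7 and 146 CPM with Wnt5a, without overlap. It rose by 1.26 ± 0.23 (adjusted p = 0.0109), and its medians in complete media + IgG and QCM + IgG were 7.64 and 10.9 CPM. P2rx2, an ATP-gated ion channel, followed the same order, with medians of 1.13 CPM in complete media + IgG, 2.40 CPM in QCM + IgG, 15 CPM with SCM and 37.4 CPM with Wnt5a (1.53 ± 0.37, adjusted p = 0.0248). Tgfb1, the cytokine TGF-beta 1, rose by 1.08 ± 0.29 (adjusted p = 0.0365) from a median of 3.25 CPM to 6.87 CPM. In these genes the level of SCM lay between those of the controls and of Wnt5a.

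Genes of the actin cytoskeleton were among those called. Limk1, a kinase that inactivates cofilin, rose by 1.09 ± 0.27 (adjusted p = 0.0273) with levels of 3.71 to 7.24 CPM with SCM and 9.24 to 16.4 CPM with Wnt5a. Diaph2, a formin, rose by 0.80 ± 0.20 and Elmo1, an activator of Rac, by 0.80 ± 0.20 (adjusted p = 0.0273 for each), and none of these 3 overlapped. Their medians in complete media + IgG were 6.02, 21.9 and 19.4 CPM, near those of SCM at 6.09, 21.7 and 21.4 CPM. Limk1, Diaph2 and Elmo1 were picked for mention after their values were seen. In a list of 19 tested actomyosin genes 17 were above 0 with a median of 0.25, and Actn1, an actin crosslinker, was called at 0.59 ± 0.17 (adjusted p = 0.0461). Actn1 was not called with the replicate block, where its log2 fold change of 0.57 was under the fold cutoff, and stayed called in 2 of 14 other settings. With the length and GC correction the median of the list was 0.12.

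Gcg and Avil, genes of rare epithelial cells, were also higher with Wnt5a. Gcg, the proglucagon gene of enteroendocrine L cells, was at 119, 144 and 160 CPM with SCM and 189, 221 and 257 CPM with Wnt5a, without overlap (0.63 ± 0.12, adjusted p = 0.0109). Its medians in complete media + IgG and QCM + IgG were 185 and 169 CPM, so the SCM cultures held the lowest level. Gcg was the 1 called among 19 tested enteroendocrine genes, which had 9 estimates above 0 and a median of −0.03. Outside that list the enteroendocrine genes Insm1, described below, and Pcsk1n, an inhibitor of a prohormone convertase, were called lower, the latter at −1.27 ± 0.31 (adjusted p = 0.0253). Avil, advillin of tuft cells, rose by 1.45 ± 0.30 (adjusted p = 0.0123), with 1.87 to 7.37 CPM with SCM and 7.72 to 18.1 CPM with Wnt5a. Of 10 tested tuft cell genes 8 were above 0 with a median of 0.56. That median was 0.51 with the length and GC correction, 0.90 without replicate 1 of both groups and 1.01 with voom and quantile normalization. Pou2f3, the regulator that defines the lineage, had −0.16 ± 0.47 (adjusted p = 0.887) and Dclk1 had 1.25 ± 0.58 (adjusted p = 0.229).

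The largest log2 fold changes above 0 after Fn1 belonged to genes with few counts. Sox11, a developmental transcription factor, had 6 counts over the SCM libraries and 203 over the Wnt5a libraries (4.89 ± 0.97, adjusted p = 0.0109). Angptl2, a secreted angiopoietin-like protein, had 15 and 211 counts (3.79 ± 0.80, adjusted p = 0.0212), and Cyp21a1, a steroid hydroxylase, had 7 and 168 counts (4.2 ± 0.81, adjusted p = 0.0123). None of these 3 overlapped, and in each 3 of the 6 SCM libraries were at 0. DESeq2 called none of the 3, nor Slc5a12. Slc5a12, a lactate transporter of the enterocyte surface, differed from Sox11, Angptl2 and Cyp21a1 in its controls. Its medians were 2.68 CPM in complete media + IgG, 1.17 CPM in QCM + IgG, 0.0326 CPM with SCM and 1.47 CPM with Wnt5a (4.54 ± 0.94, adjusted p = 0.0123), so it was lowest with SCM and nearer its controls with Wnt5a. Enpep, an aminopeptidase of the brush border, had the same order at a higher level, with medians of 62.5, 47.3, 33.9 and 56.9 CPM (0.78 ± 0.16, adjusted p = 0.0123).

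**Figure D2:**
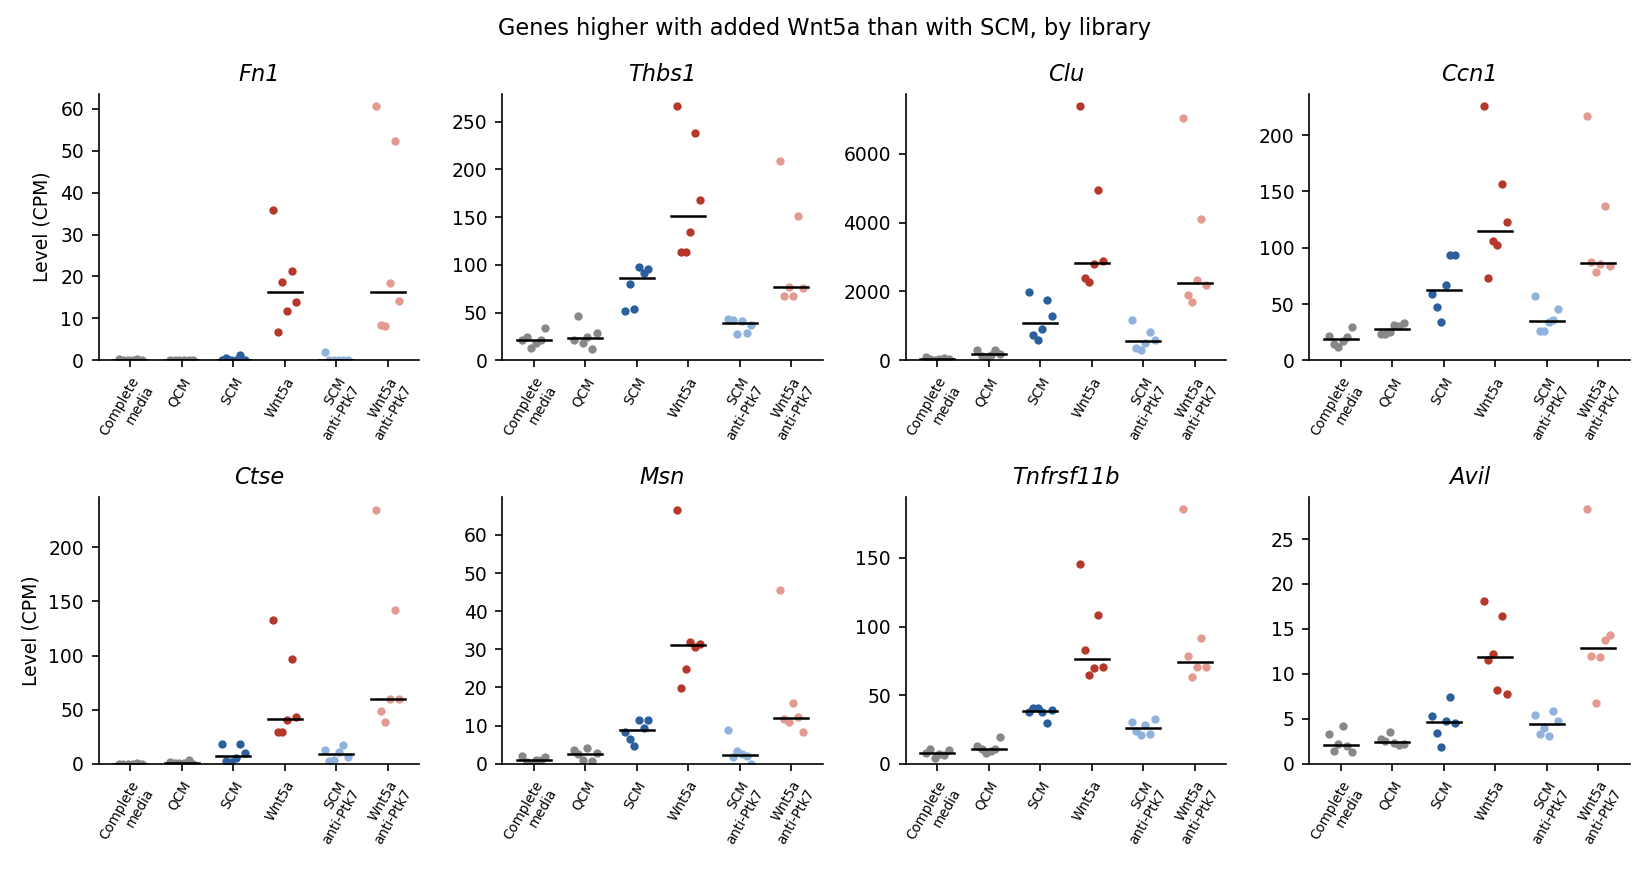
CPM on a linear axis in each library of the 6 conditions for 8 genes called higher with Wnt5a, where each dot is 1 library and the bar is the median of 6. Clu, Thbs1, Ccn1, Ctse and Tnfrsf11b step up from complete media to SCM and again to Wnt5a, while Fn1 is near 0 except with Wnt5a.

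Reg4, Apoa1, R3hdml, Insm1, Wnt3 and Id1 were among the genes higher with SCM than with Wnt5a. Reg4, a lectin secreted by enteroendocrine and secretory progenitor cells, was at 127, 150 and 174 CPM with SCM and 51.4, 92.3 and 97.6 CPM with Wnt5a, without overlap. Its log2 fold change was −0.81 ± 0.15 (adjusted p = 0.0108). The medians of its controls were 84.3 CPM in complete media + IgG and 117 CPM in QCM + IgG, so the Wnt5a level lay near that of complete media and the SCM level lay above both controls.

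Apoa1, the main protein of high-density lipoprotein and a product of enterocytes, was at 444, 498 and 604 CPM with SCM and 225, 308 and 402 CPM with Wnt5a (−0.76 ± 0.16, adjusted p = 0.0123). Its medians were 266 CPM in complete media + IgG and 467 CPM in QCM + IgG, and the groups did not overlap. The fibroblast media thus both lay above complete media for Apoa1, whether the fibroblasts were quiescent or senescent. Apoa1 was the 1 member called among 22 tested enterocyte genes, of which 15 were above 0 with a median of 0.09. With the replicate block Mep1a, a brush border protease, was called higher, but not with the block in the 12 libraries alone. Apoa4 had −0.53 ± 0.17 (adjusted p = 0.0727).

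R3hdml, a secreted protein of the CAP family, had 7.88 to 12.8 CPM with SCM and 1.69 to 7.26 CPM with Wnt5a (−0.98 ± 0.23, adjusted p = 0.0202), and medians of 3.92 and 5.29 CPM in the controls. Insm1, a zinc finger factor of enteroendocrine precursors, had 8.43 to 16.3 CPM with SCM and 3.58 to 7.97 CPM with Wnt5a (−1.08 ± 0.26, adjusted p = 0.0237). Its medians were 12.3 CPM in complete media + IgG and 12.2 CPM in QCM + IgG, at the level of SCM. Wnt3, the Paneth cell ligand that sustains crypt stem cells, was similar in this, with 14.6 and 15.9 CPM in the controls, 15.3 CPM with SCM and 10 CPM with Wnt5a (−0.77 ± 0.20, adjusted p = 0.0314). For Insm1 and Wnt3 the Wnt5a cultures alone lay lower than the other media with IgG by median, and neither gene overlapped between Wnt5a and SCM.

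Few estimates were above 0 in the goblet and Paneth cell lists. Among 13 tested goblet cell genes 2 were above 0 and the median was −0.32, with no member called. Clca1, a secreted goblet cell protease, had −0.76 ± 0.22 (adjusted p = 0.0537) and was called lower with the replicate block, while Muc2, the main gel-forming mucin, was above 0 at 0.63 ± 0.24 (adjusted p = 0.146). In the 12 libraries alone with the block, Muc2 was called higher and Clca1 was not called. Of 9 tested Paneth cell genes 1 was above 0 with a median of −0.35 and none was called. Both lists hold short genes, with median exon lengths of 1389 bases (goblet) and 799 bases (Paneth). With the length and GC correction the medians were −0.285 and −0.253. Without replicate 1 of both groups they were −0.308 and −0.238. Lyz1, the lysozyme of Paneth granules, passed on p but not on fold (−0.50 ± 0.12, adjusted p = 0.0273), and Defa30, an alpha-defensin, was called lower with the replicate block, but not with the block in the 12 libraries alone or together with the length and GC correction.

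Id1, an inhibitor of bHLH factors and a direct target of BMP signaling, was at 24.4, 30.6 and 33.3 CPM with SCM and 15.9, 18.9 and 23.6 CPM with Wnt5a, without overlap (−0.63 ± 0.16, adjusted p = 0.0273). Its medians were 8.60 CPM in complete media + IgG and 14.5 CPM in QCM + IgG, so both media lay above the controls and SCM was highest. Bambi, a decoy receptor that is itself induced by BMP and Wnt signals, had a median of 13.3 CPM with SCM and 7.79 CPM with Wnt5a (−0.91 ± 0.23, adjusted p = 0.0289), with 8.12 and 9.03 CPM in the controls and overlap between SCM and Wnt5a. The list of 14 tested TGF-beta and BMP response genes had 6 above 0 and a median of −0.07, with Id1 and Bambi called lower and Tgfb1 called higher. With the length and GC correction Bambi alone remained called, and DESeq2 did not call Tgfb1. Ccl9, a chemokine, was at medians of 15.3 CPM in complete media + IgG, 21.6 CPM in QCM + IgG, 30.4 CPM with SCM and 15.3 CPM with Wnt5a (−0.92 ± 0.26, adjusted p = 0.0497).

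Several genes higher with SCM than with Wnt5a were highest in the medium of quiescent fibroblasts. Cnnm3, a magnesium transport mediator, had medians of 20.4 CPM in complete media + IgG, 38.7 CPM in QCM + IgG, 30.2 CPM with SCM and 9.25 CPM with Wnt5a (−1.46 ± 0.32, adjusted p = 0.0156). The same order held for Mta1, a chromatin remodelling subunit, with 18.8, 29.5, 24.1 and 11 CPM (−1.02 ± 0.23, adjusted p = 0.0181). Egln1, the prolyl hydroxylase that marks HIF for degradation, had 26.7, 55.0, 40.9 and 17.8 CPM (−1.18 ± 0.28, adjusted p = 0.0230). Znrf2, a ubiquitin ligase, had 39.9, 79.1, 72.3 and 30.7 CPM (−1.22 ± 0.30, adjusted p = 0.0253). In these 4 genes the Wnt5a cultures had the lowest median of the media with IgG. Cnnm3 and Mta1 did not overlap between SCM and Wnt5a, and Egln1 and Znrf2 did.

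Snrnp25, Rps14 and Rpph1 were also called lower with Wnt5a. Snrnp25, a protein of the minor spliceosome, was at 27.7, 34.8 and 39.9 CPM with SCM and 17.3, 20.1 and 24.2 CPM with Wnt5a, without overlap (−0.77 ± 0.12, adjusted p = 0.0021). Rps14, a protein of the small ribosomal subunit, was at 162, 235 and 259 CPM and 96.7, 124 and 154 CPM (−0.81 ± 0.16, adjusted p = 0.0109), with 171 and 278 CPM in the controls. Rpph1, the RNA of ribonuclease P, had medians of 4.18 and 1.91 CPM (−1.27 ± 0.30, adjusted p = 0.0230).

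Of 75 tested ribosomal protein genes, a list added after the values were seen, 1 was above 0 and the median log2 fold change was −0.42. Rpl13a, Rpl41, Rplp1 and Rps14 were called, which became 6 with the replicate block. These genes are short, and gene length moved with the comparison as a whole. The median exon length was 4955 bases in the 46 genes higher with Wnt5a, 1930 bases in the 61 genes lower and 3740 bases in all genes tested. Over 5 bins of equal size, from the shortest genes to the longest, the median log2 fold change went from −0.15 through −0.06, 0.02 and 0.06 to 0.13. With the correction for exon length and GC content the ribosomal protein genes still had a median of −0.42 and 3 were called. That correction left 86 genes called, 29 higher and 57 lower, and 74 of the 107 were among them. With the replicate block together it gave 234.

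**Figure D3:**
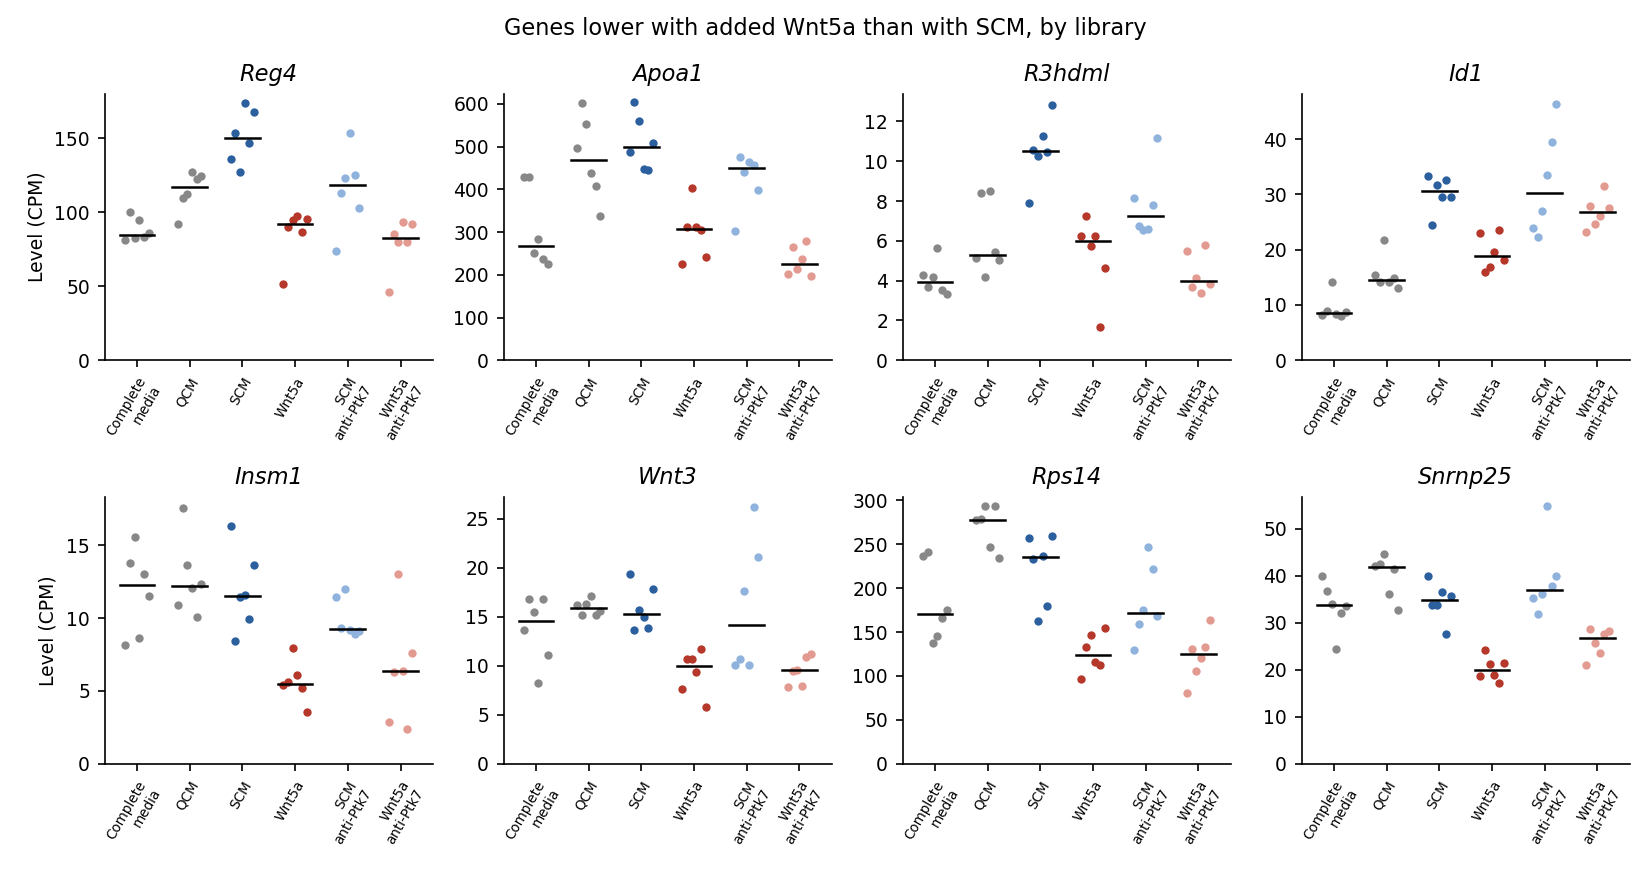
CPM on a linear axis in each library of the 6 conditions for 8 genes called lower with Wnt5a, where each dot is 1 library and the bar is the median of 6. Reg4, R3hdml and Id1 have their highest IgG medians with SCM, Insm1 and Wnt3 have their lowest with Wnt5a, and Rps14 and Snrnp25 are highest in QCM.

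Wscd1, Tgfbr3 and Plpp7 had no count in any of the 6 Wnt5a + IgG libraries. With SCM they had 87 counts in 5 libraries, 44 in 4 and 72 in 5. Against a floor of 3 counts over the group these were at least 30.7-fold, 15.5-fold and 25.4-fold higher with SCM, a bound that covers counting error only. Each was called (adjusted p = 0.0310, 0.0461 and 0.0230), but DESeq2 called none of them. They were called in 6, 2 and 10 of the 12 fits that each left out 1 library. Tgfbr3 encodes betaglycan, a coreceptor of TGF-beta. In the anti-Ptk7 libraries the log2 fold changes of Wscd1, Tgfbr3 and Plpp7 were −0.06, 0.73 and 0.27, and none was called.

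Among the receptors through which Wnt5a could act, no gene was called with IgG. Of 25 tested Wnt receptors and planar polarity genes 17 were above 0 with a median of 0.18, which became 14 and 0.10 with the length and GC correction. Ptk7 had 4.62, 13.9 and 18.1 CPM with SCM and 16.7, 18.8 and 28.4 CPM with Wnt5a (0.63 ± 0.25, adjusted p = 0.154), with overlap, and medians of 11.3 and 10.1 CPM in the controls. In the anti-Ptk7 libraries Ptk7 was called higher with Wnt5a, at 0.92 (adjusted p = 0.0352). The Wnt5a transcript itself was too low to be tested, with 2 counts over the SCM libraries and 0 over the Wnt5a libraries, and an added protein carries no RNA of its own. Camk2g, a calmodulin-dependent kinase, was the 1 called among 20 tested genes of calcium signaling, at −0.94 ± 0.26 (adjusted p = 0.0460) with medians of 4.31 and 2.14 CPM. It was called in 2 of 12 fits that each left out 1 library, and neither by DESeq2 nor in the 12 libraries alone. With the block in the 12 libraries alone, Nfatc2 was called higher and Camk2g was not called. Of the 20 genes 13 were above 0, with a median of 0.22, or 0.05 with the length and GC correction.

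Canonical Wnt targets and crypt base stem cell genes had no member called and medians near that of all genes. Among 17 tested canonical targets 11 were above 0 with a median of 0.13, and among 14 tested stem cell genes 6 were above 0 with a median of −0.02. Lgr5, the receptor that marks these stem cells, was at 70.7, 140 and 238 CPM with SCM and 134, 178 and 194 CPM with Wnt5a (0.27 ± 0.22, adjusted p = 0.546). Axin2, a feedback target of beta-catenin, had −0.18 ± 0.17 (adjusted p = 0.63) and Olfm4, a stem cell glycoprotein, −0.06 ± 0.26 (adjusted p = 0.92). For none of these was a difference between the media detected.

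Apart from the ribosomal protein genes, 38 lists with 579 different tested genes were counted. Of these genes 17 were called, 11 higher and 6 lower with Wnt5a, where 0.69% of all genes tested were called. The replicate block gave 40, 31 higher and 9 lower, where it called 1.67% of all genes. The lists were chosen with earlier results of these data known, so their share of calls cannot be read against that of all genes. Of these 38 lists, 13 had at least 1 member called and 25 had none. Of the lists not described above, that of mucosal defence held Reg4, and that of mitochondrial transcripts held mt-Co3, a subunit of cytochrome oxidase, at −0.89 ± 0.26 (adjusted p = 0.05) with medians of 4.75 and 2.21 CPM. Proliferation genes had 8 of 20 above 0 and a median of −0.07, interferon and antigen presentation genes 9 of 23 and −0.13, and cytokines and NF-kB targets 13 of 17 and 0.15. Glycolysis and hypoxia genes had 6 of 19 above 0 and a median of −0.35. Ldha, the lactate dehydrogenase of that list, passed on p but not on fold (−0.43 ± 0.10, adjusted p = 0.0248) and did not overlap. Notch pathway genes had 8 of 15 above 0 and a median of 0.02 (−0.14 with the length and GC correction), with Jag1 and Notch2 called higher with the replicate block. The block with the correction also called Jag2 lower, and the block in the 12 libraries alone called Notch2 only. No member was called in the lists of intestinal identity factors, EGFR and MAPK feedback, AP-1, squamous keratins, ion transport, cholesterol and fatty acid synthesis, protein stress, zinc, aryl hydrocarbon response, clock or p53 genes, whose medians lay between −0.04 and 0.19. Of these lists and that of mucosal defence, the replicate block added Onecut2, Egfr, Cyp1b1 and Duoxa2 as higher and Npas2 as lower with Wnt5a. The block in the 12 libraries alone called neither Onecut2, Duoxa2 nor Npas2, and Onecut2 was also lost with the block and the correction. Prostaglandin genes had 5 of 9 above 0 and a median of 0.42. Ptgs2, the inducible cyclooxygenase, was called with the block and had 10.7 to 19.7 CPM with SCM and 21 to 76.1 CPM with Wnt5a (1.38 ± 0.43, adjusted p = 0.0696 without the block), so its libraries did not overlap.

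**Figure D4:**
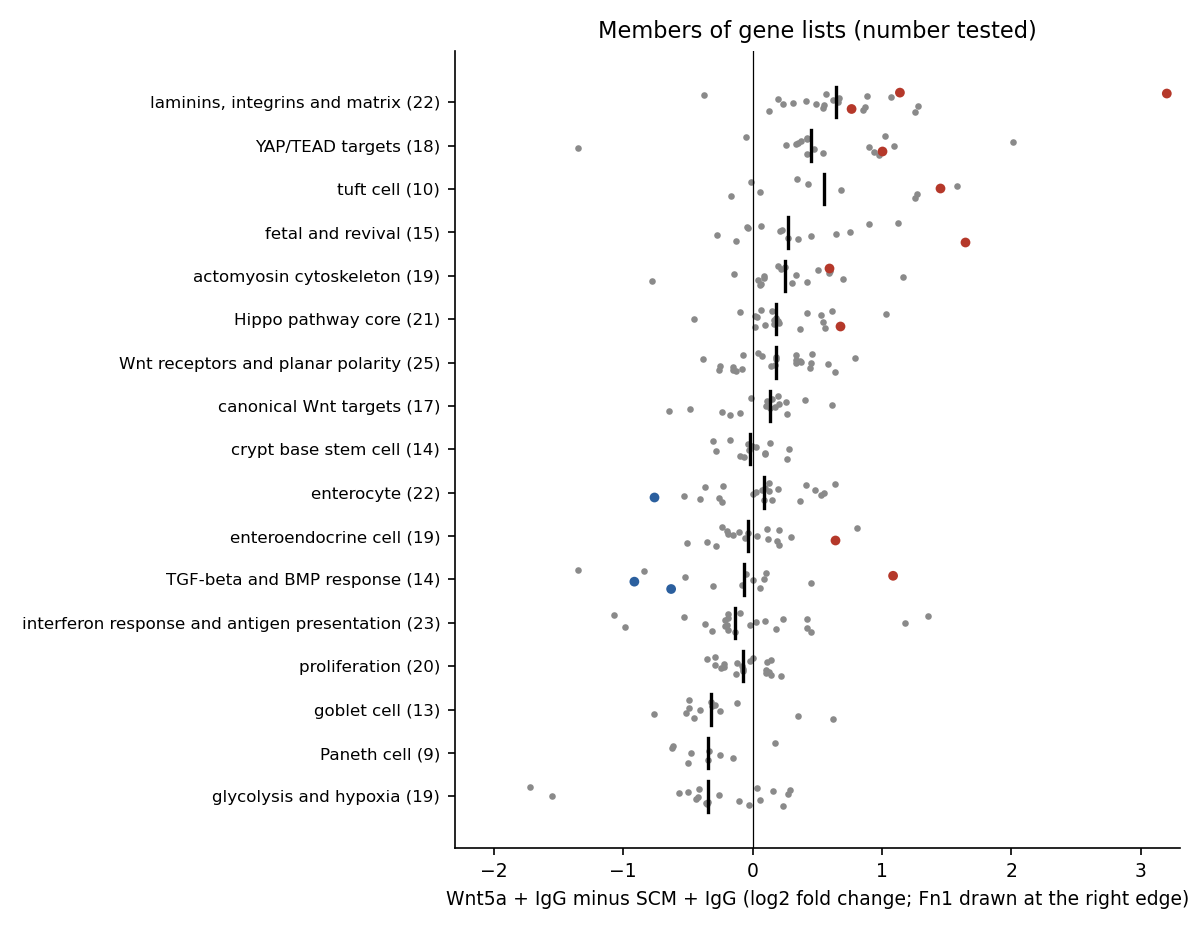
Log2 fold change of Wnt5a + IgG against SCM + IgG for the tested members of 17 gene lists, where each dot is 1 gene, the bar is the list's median and colored dots are called genes. Fn1 at 5.97 is drawn at the right edge, the matrix list has the highest median of those drawn at 0.64, and the Paneth and glycolysis lists lie at −0.35.

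The 12 anti-Ptk7 libraries give the same media in cultures that were not among the 12 compared with IgG. They entered the same fit, so the 2 comparisons share an estimate of spread. By the replicate numbers they were also taken to come from the same mice. There, 237 genes were called, or 1.53% of those tested, with 198 higher with Wnt5a (1.28%) and 39 higher with SCM (0.252%). These became 499 under the replicate block (3.22%), with 411 higher (2.65%) and 88 lower (0.568%). Without replicate 1 of Wnt5a + anti-Ptk7 the count was 19. In 275 genes (1.77%) the libraries of these media did not overlap.

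Of the 46 genes higher with Wnt5a + IgG, 45 had the same direction with anti-Ptk7, against 50.4% of all genes tested with an estimate above 0, 25 were called and 18 did not overlap. The exception in direction was Vps9d1, at 0.69 with IgG and −0.02 with anti-Ptk7. Some genes described above were much closer to 0 with anti-Ptk7. In the quasi-likelihood test with the replicate block, Enpep had 0.07 (adjusted p = 0.809) and Limk1 had 0.24 (adjusted p = 0.615) there. The median log2 fold change of the 46 was 0.98 with IgG and 0.90 with anti-Ptk7. Their median exon length was 4955 bases, against 3740 for all genes tested. With anti-Ptk7 too, the median log2 fold change rose with gene length, from −0.12 in the shortest bin to 0.10 in the longest. The share over all genes is therefore not a matched comparison for the 46. Fn1 had 0, 0 and 2.08 CPM with SCM + anti-Ptk7 and 8.29, 16.3 and 60.6 CPM with Wnt5a + anti-Ptk7 (6.14, adjusted p = 0.00023). Clu had a log2 fold change of 2.36 there (adjusted p = 0.00329), Ctse 3.46 (adjusted p = 0.00308), Tnfrsf11b 1.83 (adjusted p = 7.21e-05) and Thbs1 1.55 (adjusted p = 0.00593). Angptl2 had no count with SCM + anti-Ptk7 and 209 counts with Wnt5a + anti-Ptk7. The matrix list had 6 members called higher and a median of 0.56 in these libraries, the YAP/TEAD targets 3 and 0.77, and the fetal and revival genes 3 and 0.71.

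Of the 61 genes lower with Wnt5a + IgG, 58 had the same direction with anti-Ptk7, against 49.6% of all genes tested with an estimate below 0, 10 were called and 8 did not overlap. The exceptions were Copz2, Tgfbr3 and Plpp7, and the median was −0.76 with IgG and −0.51 with anti-Ptk7. These 61 genes were short, with a median exon length of 1930 bases against 3740 for all genes tested. Since both sets of libraries had the trend with gene length, the share over all genes is not a matched comparison for them either. Apoa1 (−0.86, adjusted p = 0.00443), Reg4 (−0.54, adjusted p = 0.0349), Wnt3 (−0.74, adjusted p = 0.0321) and Snrnp25 (−0.60, adjusted p = 0.00908) passed on p in both sets of libraries. Of these, Reg4 missed the fold cutoff with anti-Ptk7. Id1 had −0.26 (adjusted p = 0.353) and mt-Co3 had −0.04 (adjusted p = 0.954) there. Glycolysis and hypoxia genes had a median of 0.17 with anti-Ptk7, the opposite side of 0 from the −0.35 with IgG, whereas that of the ribosomal protein genes was −0.40.

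Whether the difference between the media itself depended on the antibody was tested across all genes. By edgeR's quasi-likelihood test 0 genes were called, 602 had an unadjusted p under 0.05 (3.88%), and voom with limma and DESeq2 called 0 as well. Adding the replicate block gave 3 called genes (0.0194%), all with a larger Wnt5a excess under anti-Ptk7, namely Clu at −0.70 (adjusted p = 0.0415), Ctrb1, chymotrypsinogen, at −1.27 (adjusted p = 0.0415) and Glipr1, a CAP family protein, at −0.98 (adjusted p = 0.0275). The block together with the length and GC correction called 0. A difference in Id1 or mt-Co3 between the antibodies was therefore not shown.

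**Figure D5:**
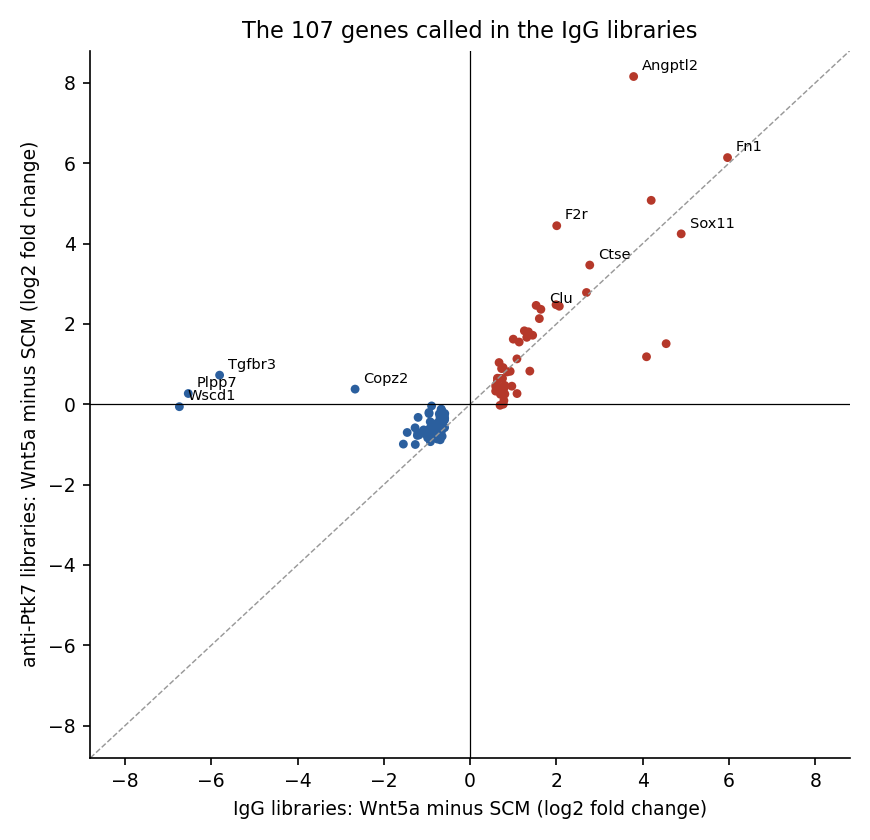
Log2 fold change of Wnt5a against SCM with IgG (horizontal axis) and with anti-Ptk7 (vertical axis) for the 107 genes called with IgG, which share no library between the axes. Of the genes right of 0, 45 of 46 lie above 0, and of the genes left of 0, 58 of 61 lie below 0, and the positions of Wscd1, Tgfbr3, Plpp7 and Angptl2, at 0 counts in one group, depend on the fit.

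Since SCM has its own control in QCM, each medium was also set against its own control, as Wnt5a against complete media less SCM against QCM. By this measure 11 genes were called (0.071%), all with the larger difference for Wnt5a, and 1287 had an unadjusted p under 0.05 (8.30%). Clu led with 3.55, and Tnfrsf11b had 1.87. For Clu the control of SCM lay above that of Wnt5a, with medians of 169 CPM in QCM + IgG and 41.9 CPM in complete media + IgG. Itgb5, an integrin beta chain, had 1.32 and medians of 15.4 CPM in complete media + IgG, 32 CPM in QCM + IgG, 39.1 CPM with SCM and 44.2 CPM with Wnt5a. For Itgb5 the call came with a higher level in QCM than in complete media, while SCM and Wnt5a overlapped. The replicate block gave 246 genes (1.59%), 236 with the larger difference for Wnt5a (1.52%) and 10 with the larger for SCM (0.0645%).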

How the data were processed

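RNA of 36 organoid cultures was sequenced from low-input Smart-Seq V4 and Nextera XT libraries. The authors aligned reads to the mouse genome (mm10) with GSNAP (version 2013-11-01) through HTSeqGenie and deposited raw counts per gene. Coding-sequence reads were to be counted, yet non-coding genes hold counts, and annotation and strand are not given in the sources used here. Overlapping genes and paralogs such as the ribosomal proteins are therefore uncertain.

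Each library lists 52636 genes. Names, positions and exon lengths came from GENCODE vM21 (GRCm38) and promoters from RefSeq. filterByExpr kept 15497 genes, counts were scaled by TMM, and edgeR 4.0.16 in R 4.3.3 fitted 6 condition means to all 36 libraries (glmQLFit, glmQLFTest). CPM are TMM-scaled. Scripts were tested on simulated data. Alternatives used limma 3.58.1 and DESeq2 1.42.0, the replicate block, other scalings and filters, and libraries left out. Total counts of at least 10213464 per compared library leave genes under about 1 CPM limited by counting error, and bounds cover counting error only.

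The series' design names 6 mice and the labels give replicate numbers 1 to 6, so numbers were taken as pairing libraries through the mouse, although which number is which mouse is not stated. Same-numbered Wnt5a + IgG and SCM + IgG libraries correlated in their deviations by 0.0962 on average (0.0152 to 0.165), against −0.0179 for other numbers, and 2 of 6 pairs were over 0.1. The study's methods name no block, so the model without it is the main one. Its p values and the permutation test therefore leave that pairing out. The balance of higher to lower calls was 46 to 61 without the block and 160 to 99 with it. No replicate pair agreed within sampling noise (chi-square per gene at least 7.28).

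Members and lists were chosen with earlier results of these data known. Genes named were the 10 higher and 10 lower with the largest log2 fold change among genes called, not overlapping and of mean log2 CPM over 1, list members, Ptk7 and Wnt5a. Other genes named were chosen after their values were seen. A few genes that entered the counts are not reported here by name.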

Additional observations from a re-analysis of the deposited data

Results flagged for a closer look

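In 6 of 64 groups of 6 libraries, for 32 genes named, the lowest or highest library lay apart from the other 5 by more than Dixon's critical value, which chance exceeds in about 1 in 20 groups. Reg4 (51.4 CPM) and Rpph1 (0.675 CPM) were lowest, and Ptk7 (28.4 CPM) was highest, in Wnt5a + IgG replicate 1, which also lay farthest out on the first principal component among the 12 libraries compared. R3hdml was lowest at 1.69 CPM in Wnt5a + IgG replicate 5. F2r was lowest at 0.287 CPM in SCM + IgG replicate 4 and Tnfrsf11b at 29.7 CPM in SCM + IgG replicate 5. Each of these libraries lay on the side of its group away from the other medium.

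The difference between each medium and its own control differed between Wnt5a and SCM in 11 genes by edgeR's quasi-likelihood test of that difference. For the 10 reported here the log2 differences were 3.55 for Clu, 2.12 for Ctrb1, 1.87 for Tnfrsf11b, 1.43 for Sema3b, 1.38 for Slc34a2, 1.32 for Itgb5, 0.971 for Blvrb, 0.968 for Igfbp4, 0.834 for Capn1 and 0.827 for Cyba. Clu, Tnfrsf11b and Igfbp4 were also higher with Wnt5a than with SCM at an adjusted p under 0.05, whereas the other 7 of these were not.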

How the results depend on the processing

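None of the 107 genes called changed sign under another test, scaling, filter, block or correction or without replicates 1, but the balance of calls did. It was 46 higher to 61 lower with Wnt5a in the main comparison, 160 to 99 with the replicate block, 87 to 67 with DESeq2 and 75 to 65 with voom on TMM-scaled values. Of 36 lists with more than 1 tested gene, 12 had a median that changed sign under at least 1 setting, among them canonical Wnt (0.13 to −0.01 with correction and block), Notch (0.02 to −0.14 with the correction), enteroendocrine (−0.03 to 0.04 without replicates 1) and prostaglandin genes (0.42 to −0.04 with no filter). Against 107 called genes, the replicate block gave 259, the 12 libraries alone 51, those with the block 183, a test against a fold of 1.5 gave 1, no fold cutoff 436, a fold over 2 gave 37, and the length and GC correction with the block 234. Leaving out 1 library gave 20 (without Wnt5a + IgG replicate 5) to 179 (without Wnt5a + IgG replicate 2), with 22 without Wnt5a + IgG replicate 1, 33 without SCM + IgG replicate 1, 40 without SCM + IgG replicate 6, 67 without SCM + IgG replicate 4 and 156 without SCM + IgG replicate 5. Called in all 12 of these fits were 14 genes, among them Fn1, Tnfrsf11b, Avil, Reg4, Rps14 and Snrnp25. Voom with limma called 150, with 96 of the 107, and DESeq2 called 154, with 83 of the 107. With replicate 1 of both groups left out 3 were called. For the anti-Ptk7 libraries 237 became 499 with the block, 502 with the correction and block, and 19 (without Wnt5a + anti-Ptk7 replicate 1) to 503 (without SCM + anti-Ptk7 replicate 1) without 1 library. The count was 97 to 149 without SCM + anti-Ptk7 replicate 3, 4, 5 or 6 and 115, 378 and 391 without Wnt5a + anti-Ptk7 replicate 5, 3 and 6. For the difference from own controls 11 became 246 with the block, 2 with voom, 53 with DESeq2, 224 with correction and block, and 7 (without Wnt5a + IgG replicate 1) to 13 without 1 library. The antibody difference rose from 0 to 3 with the block, was 0 with correction and block, and stayed at 0 without 1 library. List members called, without the ribosomal protein genes as a list, went from 17 to 40 with the block, 35 with correction and block, and 1 without both replicates 1. The distance ranged from 48.27 to 53.21 without 1 library. Besides Actn1 and Syne2, which fell under the fold cutoff, the block ended no call of the 107. The causes of these shifts were not tested.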

Other observations

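Single genes outside the groups above also differed between the media. Cpe, carboxypeptidase E of secretory granules, was at 45.2, 72.9 and 179 CPM with SCM and 117, 182 and 502 CPM with Wnt5a, with medians of 46.4 CPM in complete media + IgG and 54.9 CPM in QCM + IgG. The groups overlapped. It was called higher with Wnt5a at a log2 fold change of 1.31 ± 0.37 (adjusted p = 0.0472 in edgeR) and had 1.67 in the anti-Ptk7 libraries (adjusted p = 0.0136). Adam9, a membrane-anchored sheddase, was at medians of 111 and 154 CPM (0.62 ± 0.15, adjusted p = 0.0270) and Igfbp4, a binding protein of insulin-like growth factors, at 98.2 and 137 CPM (0.56 ± 0.13, adjusted p = 0.0220, under the fold cutoff). In the other direction Pycard, the inflammasome adaptor ASC, was at 263, 325 and 377 CPM with SCM and 93.2, 215 and 272 CPM with Wnt5a (−0.62 ± 0.18, adjusted p = 0.0463), with 270 and 393 CPM in complete media + IgG and QCM + IgG. Pfkfb1, a regulator of glycolysis, was at medians of 7.97 and 4.29 CPM (−0.95 ± 0.27, adjusted p = 0.0465). These genes were chosen after their values were seen.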
